A study of Homo sapiens with 6 samples.

Results

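The genes described here are 36 genes that fold, move and clear proteins in the endoplasmic reticulum (ER), with sensors of the unfolded protein response, taken by symbol from a table of 23368 genes. All 36 were found once in the table, and all 36 passed the expression filter. They comprise 18 folding genes, 9 degradation genes, 6 genes of translocation and transport and a sensor group of 3 (ERN1, ATF6 and XBP1). RNA-seq was done on HepG2, a human hepatoma cell line that makes and secretes many plasma proteins. The cells of 3 libraries (shCHROME a to c) carried a lentiviral hairpin aimed at all variants of CHROME, a long noncoding RNA. Those of the other 3 (EV a to c) carried a non-targeting hairpin in the same pLKO vector, from virus packaged in HEK293T cells. Only 1 hairpin against CHROME was used, no source says that replicates were separate cultures, and CHROME itself is not analysed here. Each p-value is therefore set against a spread among libraries that could be technical only.

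Secreted and membrane proteins enter the ER through the Sec61 channel, fold there with chaperones and disulphide enzymes, and leave in COPII vesicles or are returned to the cytosol for degradation. When unfolded protein builds up, the sensors IRE1 (ERN1), ATF6 and PERK switch on the unfolded protein response. IRE1 splices the messenger of XBP1, and the XBP1 protein and the cleaved form of ATF6 then raise transcription of chaperone, degradation and transport genes. Hepatocytes carry a heavy load of secreted protein, and these genes are highly expressed in liver. Splicing of XBP1 and cleavage of ATF6 cannot be read from values per gene and are not analysed here.

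ATF6 and XBP1 act through the ER stress response elements ERSE (CCAAT and CCACG separated by 9 bases) and ERSE-II (ATTGG and CCACG separated by 1 base), so the stretches before the transcription start are shown for 4 genes that were lower in shCHROME cells. HSPA5 is shown as the classical ERSE gene, HSP90B1 for a pair of ERSE copies, HERPUD1 for ERSE-II and ERO1LB for the greatest decrease among the 36 genes. Each run is the 250 bases upstream of a RefSeq start, read 5′ to 3′ on the gene's strand (build GRCh38.p14). HSPA5 is at chr9:125241344-125241593, minus strand, HSP90B1 at chr12:103930160-103930409, plus strand, HERPUD1 at chr16:56931892-56932141, plus strand and ERO1LB, now named ERO1B, at chr1:236281959-236282208, minus strand. Capitals mark the matched letters of ERSE or ERSE-II on either strand.
HSPA5: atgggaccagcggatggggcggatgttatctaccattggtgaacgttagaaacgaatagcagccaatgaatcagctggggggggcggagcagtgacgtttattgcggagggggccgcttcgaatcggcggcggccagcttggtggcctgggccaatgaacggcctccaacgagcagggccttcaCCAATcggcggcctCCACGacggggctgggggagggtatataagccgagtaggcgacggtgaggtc
HSP90B1: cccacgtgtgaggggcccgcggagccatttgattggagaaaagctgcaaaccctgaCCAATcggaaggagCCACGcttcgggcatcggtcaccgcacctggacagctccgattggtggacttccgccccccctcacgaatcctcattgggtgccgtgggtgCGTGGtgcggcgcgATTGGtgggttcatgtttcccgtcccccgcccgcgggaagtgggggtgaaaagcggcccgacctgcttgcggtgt
HERPUD1: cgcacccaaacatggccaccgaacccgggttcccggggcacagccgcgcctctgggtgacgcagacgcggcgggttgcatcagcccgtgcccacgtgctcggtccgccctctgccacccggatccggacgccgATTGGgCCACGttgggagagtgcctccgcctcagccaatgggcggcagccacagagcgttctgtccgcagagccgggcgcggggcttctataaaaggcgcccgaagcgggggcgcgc
ERO1LB: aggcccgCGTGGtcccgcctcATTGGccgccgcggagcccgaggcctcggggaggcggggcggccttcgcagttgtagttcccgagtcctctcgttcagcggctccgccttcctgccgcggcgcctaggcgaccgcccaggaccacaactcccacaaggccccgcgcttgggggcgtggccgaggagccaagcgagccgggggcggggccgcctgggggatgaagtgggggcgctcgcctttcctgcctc

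Of the 36 genes, 32 matched a RefSeq promoter window, which spans 250 bases before to 50 bases after a start; PDIA3, SEC24D, DERL1 and DERL3 did not. An exact ERSE on either strand was in 8 of these 32 genes (25%), against 0.165% of the 10319 tested genes with a window. ERSE-II was in 3 genes, HERPUD1, HYOU1 and SDF2L1 (9.38%), against 0.136% of tested genes. Both shares of tested genes include the 36. Of 17 tested genes with ERSE, 9 lay outside the 36, and of 14 with ERSE-II, 11 did. The 36 include classical ERSE genes such as HSPA5, so the excess is not an independent result. A gene can have several windows, and over all 35116 windows the shares were 0.0769% and 0.0541%. The other ERSE genes, whose sites are shown so that their spacers can be compared, were CALR, CANX, PDIA6, XBP1 and CRELD2, with the matched letters again in capitals and 5 flanking bases in lower case on each side. They lie at chr19:12938379-12938407 (CALR, plus strand), chr5:179698773-179698801 (CANX, plus), chr2:10812848-10812876 (PDIA6, minus), chr22:28800598-28800626 (XBP1, minus) and chr22:49918549-49918577 (CRELD2, plus).
CALR: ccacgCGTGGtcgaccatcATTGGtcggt
CANX: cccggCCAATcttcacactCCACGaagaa
PDIA6: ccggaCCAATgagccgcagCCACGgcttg
XBP1: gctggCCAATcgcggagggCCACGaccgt
CRELD2: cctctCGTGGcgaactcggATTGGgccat

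**Figure D1:**
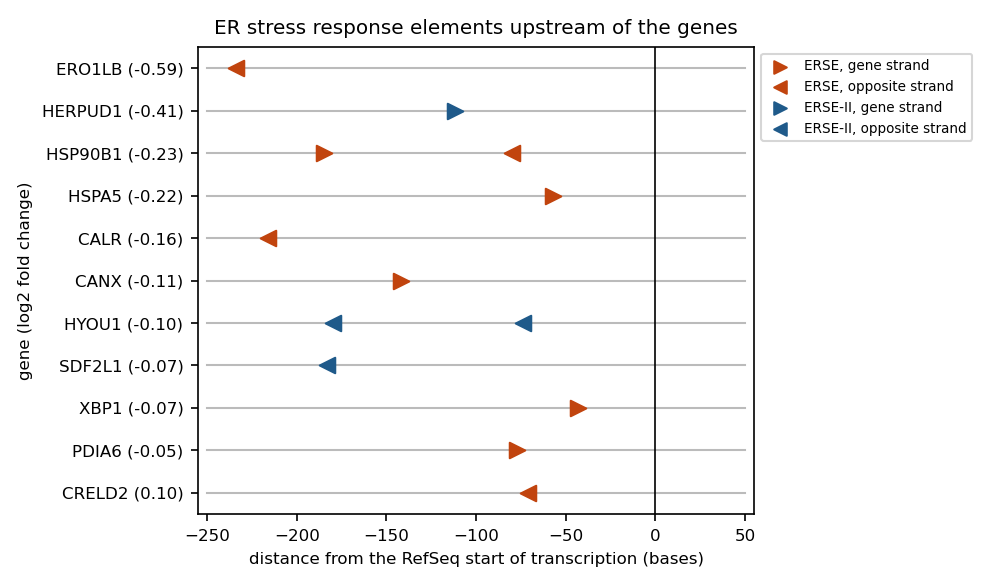
Position of each exact ERSE (red) and ERSE-II (blue) upstream of 11 genes, in bases from a RefSeq start of transcription; arrowheads give the strand and the value after each gene is its log2 fold change, shCHROME minus EV. Site centres as drawn run from -234 (ERO1LB) to -43 (XBP1), and genes with a site run from the greatest decrease (ERO1LB, -0.59) to the greatest positive value (CRELD2, 0.10). CANX has 3 RefSeq starts with the site in their windows. Its first base lies 151 bases upstream of the start drawn, and 9 and 189 bases upstream of the others.

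The UPRE core of XBP1 (TGACGTG) was in SEC61A1 and HYOU1, where it overlaps an ERSE-II, against 3.23% of tested genes and 1.97% of windows. An ATF4 site (TGATG, any base, then AA) was in HERPUD1 alone among the 32 genes and in 2.93% of tested genes and 3.62% of windows. Genes that fell were found with and without an element. Of the 11 genes with ERSE or ERSE-II, 4 were lower with an adjusted p under 0.05 and the median log2 fold change was -0.11. Of the 21 without either, 4 were lower and the median was -0.12. Another 20 tested genes outside the 36 held ERSE or ERSE-II, of which 2 were lower and 2 higher, with a median of -0.10. Over all genes tested, 6.87% were lower and 3.64% higher.

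Among the 36 genes, ERO1LB, HERPUD1, MANF, SEC24D, DNAJB9, PDIA4, SEC61A1, HSP90B1 and HSPA5 were lower in cells with the CHROME hairpin. A decrease passed the test in 9 genes and an increase in none, leaving 27 without a call (limma, adjusted p under 0.05 over 14598 genes). Over all genes tested, 6.87% were called lower and 3.64% higher, against 25% and none of the 36. Lower genes were 65.3% of all calls, and 42.9% when libraries were scaled to their totals. The median log2 fold change of the 36 genes was -0.12, against 0.01 for all genes. Of the 36 values, 34 were negative (29 with library totals), against 47.8% of all genes. All 3 shCHROME values lay below all 3 EV values in 18 of the 36 genes, and in 15.0% of all genes. The decreases that passed the test ran from 1.16-fold to 1.51-fold. Without adjustment, 16 genes had a p under 0.05, all lower, but the share of all genes under that threshold was not counted.

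**Figure D2:**
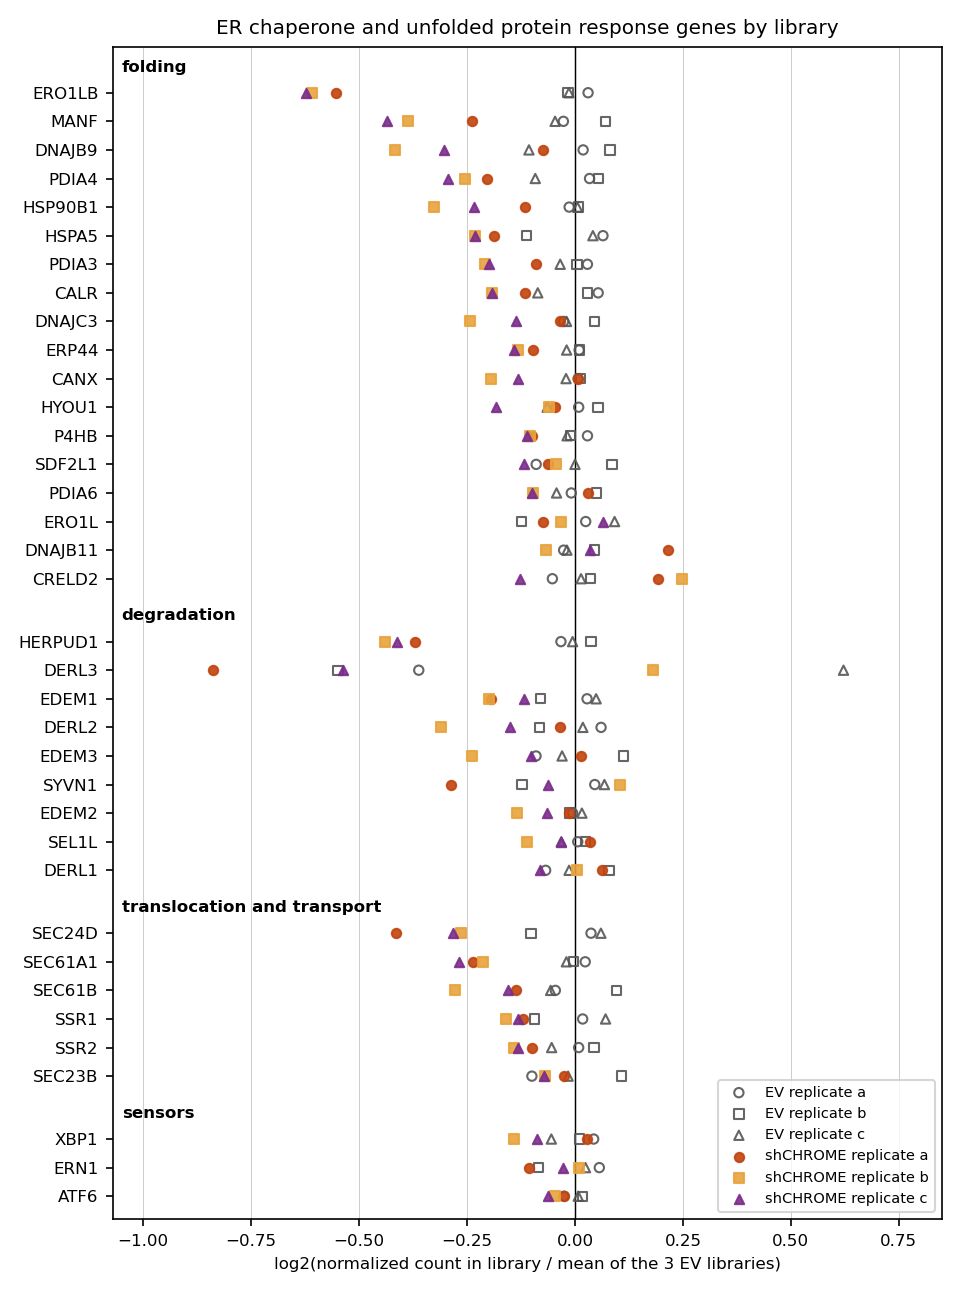
Each point is the normalized count of a gene in 1 library divided by the mean of the 3 EV libraries (log2), for EV (open symbols) and shCHROME (filled symbols), by role. The shCHROME points lie to the left of all EV points for 18 of the 36 genes, among them ERO1LB, MANF, HERPUD1, SEC24D and SEC61A1, and shCHROME replicate a is the rightmost shCHROME point for 27 of 36.

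In the sum of the 36 genes the EV libraries held 469119, 465714 and 458606 normalized counts (replicates a, b and c), and the shCHROME libraries 438919, 406267 and 413343. Each shCHROME library was below each EV library. The share of the library's normalized total fell from between 1.42% and 1.44% to between 1.31% and 1.39%. Within shCHROME, replicate a was the highest library for 27 of the 36 genes (75%), against 36.5% of all genes tested, so the 3 shCHROME libraries did not carry the change equally. Without shCHROME replicate a, 13 of the 36 genes were lower in place of 9. Without EV replicate a or shCHROME replicate c, 5 were lower. The shares of all genes called lower in these settings were 7.12%, 4.29% and 4.04%, against 6.87% with all libraries.

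Folding genes, 18 of the 36, gave 6 of the 9 decreases. Their share called lower was 33.3%, the same as for translocation and transport genes, against 6.87% of all genes. ERO1LB encodes an oxidase that recharges protein disulphide isomerases. Its EV libraries held 702.4, 680.1 and 681.1 normalized counts and its shCHROME libraries 468.9, 450.8 and 446.4 (replicates a, b and c). The groups were far apart relative to their spread, and the gene fell 1.51-fold (log2 fold change -0.59, 95% interval -0.77 to -0.42, limma adjusted p = 0.000158). Its relative ERO1L (now ERO1A), which does the same reaction, had 2761, 2490 and 2892 in EV and 2578, 2653 and 2840 in shCHROME. These groups overlapped (log2 fold change -0.01, 95% interval -0.15 to 0.13), and the 2 genes' intervals did not meet, although the difference between them was not tested. In EV cells the mean of ERO1L per kilobase of exon was 510 normalized counts, and that of ERO1LB 151.

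MANF, a small secreted protein of the ER that binds the chaperone BiP, had 1965, 2102 and 1939 normalized counts in EV and 1698, 1532 and 1480 in shCHROME. Every shCHROME library was lower, and MANF fell 1.28-fold (95% interval of the log2 fold change -0.50 to -0.21, adjusted p = 0.00296). PDIA4, a disulphide isomerase, had 23994, 24336 and 21992 in EV and 20342, 19632 and 19107 in shCHROME. The groups did not overlap, and PDIA4 fell 1.19-fold (adjusted p = 0.00794), a call lost without EV replicate a (0.0503) or shCHROME replicate c (0.0607).

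HSPA5 encodes BiP, the main Hsp70 of the ER and the chaperone that holds the stress sensors inactive. It had 40759, 36048 and 40105 normalized counts in EV and 34192, 33183 and 33183 in shCHROME. EV replicate b was the lowest EV library and still above all 3 shCHROME libraries. HSPA5 fell 1.16-fold (log2 fold change -0.22, 95% interval -0.34 to -0.09, adjusted p = 0.0246).

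HSP90B1 encodes GRP94, the Hsp90 of the ER. It had 44993, 45661 and 45597 in EV and 41890, 36232 and 38628 in shCHROME, so the shCHROME libraries were lower and more spread (SD 2840 against 368), and it fell 1.17-fold (adjusted p = 0.0217). DNAJB9, a J-domain partner of BiP, had 3782, 3949 and 3467 in EV and 3544, 2797 and 3023 in shCHROME. Here shCHROME replicate a overlapped EV, and DNAJB9 fell 1.2-fold (adjusted p = 0.0347). These 3 calls were the least secure of the 9. Of the 16 alternatives run, HSP90B1 lost its call in 8, HSPA5 in 6 and DNAJB9 in 6, with adjusted p up to 0.0958, 0.143 and 0.144.

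The other 12 folding genes did not pass the test. CANX, the membrane-bound lectin chaperone calnexin and the most abundant of the 36 per kilobase of exon, had 119338, 119858 and 117056 normalized counts in EV and 119324, 103839 and 108299 in shCHROME. Replicate a of shCHROME sat within the EV range and the other shCHROME libraries below it (log2 fold change -0.11, 95% interval -0.24 to 0.03). Its soluble counterpart calreticulin (CALR) had a log2 fold change of -0.16, and PDIA3, the isomerase that works with both lectins, of -0.17. In CALR and PDIA3 the groups did not overlap and the adjusted p was 0.0695 and 0.0613. Both were called without shCHROME replicate a (0.0394 and 0.0212) and with DESeq2 (0.0416 and 0.0343).

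P4HB, the archetypal disulphide isomerase, and ERP44, which retrieves unfinished disulphide-linked proteins, also had groups that did not overlap. Their log2 fold changes were -0.10 and -0.12. DNAJC3, which dampens PERK signalling and helps BiP, had a log2 fold change of -0.14 (adjusted p = 0.164). Its groups did not overlap either, but only narrowly (lowest EV value 6564, highest shCHROME value 6524). HYOU1, the nucleotide exchange factor of BiP, had -0.10, SDF2L1, a partner of BiP with DNAJB11, had -0.07, and PDIA6 had -0.05. The only 2 positive values among the 36 genes were those of DNAJB11, a J-domain chaperone, at 0.06 (95% interval -0.08 to 0.20) and CRELD2, an ER stress-inducible protein, at 0.10 (-0.11 to 0.32). CRELD2 was above all EV libraries in shCHROME replicates a (528.7) and b (549) and below them in replicate c (423.1).

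**Figure D3:**
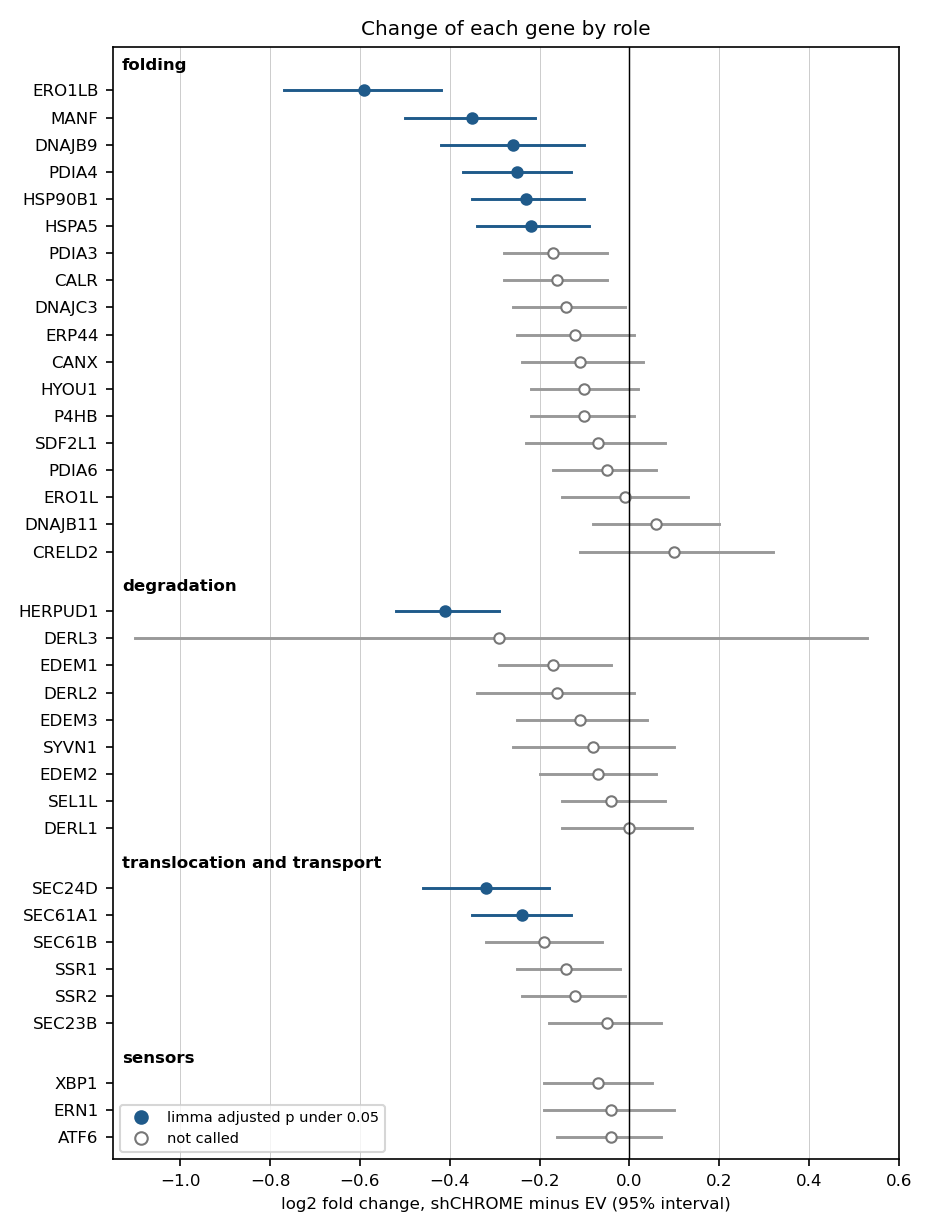
Log2 fold change of each gene (shCHROME minus EV) with its 95% interval from limma, by role; filled points are the 9 genes with an adjusted p under 0.05. Values run from -0.59 for ERO1LB to 0.10 for CRELD2. The sensor group (ERN1, ATF6 and XBP1) lies near 0, and the interval of DERL3 is the widest (-1.10 to 0.53).

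Among the 9 degradation genes, only HERPUD1 was called (11.1%, against 6.87% of all genes called lower). HERPUD1 is an ER membrane protein that organises the HRD1 ubiquitin ligase complex, and is itself a strongly inducible target of ER stress. It had 6607, 6935 and 6732 normalized counts in EV and 5227, 4982 and 5080 in shCHROME. The groups were separated by a wide gap, and it fell 1.33-fold (log2 fold change -0.41, 95% interval -0.52 to -0.29, adjusted p = 7.78e-05). With ERO1LB it had the smallest adjusted p of the 36 genes.

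The core of the same complex gave no call. SEL1L, the adaptor of the ligase, had 9508, 9629 and 9260 in EV and 9701, 8769 and 9259 in shCHROME, with overlapping groups (log2 fold change -0.04, 95% interval -0.15 to 0.08). SYVN1, which encodes the HRD1 ligase itself, had -0.08 (-0.26 to 0.10). The mannosidase-like proteins that mark glycoproteins for disposal had -0.17 for EDEM1 (adjusted p = 0.08), -0.07 for EDEM2 and -0.11 for EDEM3, and the groups did not overlap in EDEM1 and EDEM2. Among the derlins, which form part of the exit channel, DERL1 had a log2 fold change of 0.00 (-0.15 to 0.14) and DERL2 of -0.16 (-0.34 to 0.01). DERL3 had between 12 and 31 reads per library, too few to detect a change of the size seen in HERPUD1.

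Translocation and transport genes gave 2 decreases among 6 (33.3%, against 6.87% of all genes called lower). SEC61A1 encodes the channel-forming subunit of the translocon. It had 26833, 26324 and 26035 normalized counts in EV and 22401, 22780 and 21911 in shCHROME. The libraries of a group differed little, and SEC61A1 fell 1.18-fold (log2 fold change -0.24, 95% interval -0.35 to -0.13, adjusted p = 0.0062).

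SEC24D, a cargo-binding subunit of the COPII coat, had 2683, 2437 and 2726 in EV and 1962, 2178 and 2150 in shCHROME. The groups did not overlap, and it fell 1.25-fold (95% interval of the log2 fold change -0.46 to -0.18, adjusted p = 0.00472). Here replicate a was the lowest shCHROME library, unlike in most of the 36 genes. The COPII subunit SEC23B had a log2 fold change of -0.05 (-0.18 to 0.07).

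SEC61B, a small subunit of the channel, had a log2 fold change of -0.19 (adjusted p = 0.0653), and was called without shCHROME replicate a (0.0426). SSR1, a subunit of the translocon-associated protein complex, had 13165, 12190 and 13658 normalized counts in EV and 11966, 11637 and 11868 in shCHROME. EV replicate b was close to the shCHROME libraries but above them (log2 fold change -0.14, 95% interval -0.25 to -0.02, adjusted p = 0.138). SSR2, of the same complex, had -0.12 with groups that did not overlap. In 5 of these 6 genes, all but SEC23B, every shCHROME library was below every EV library, against 15.0% of all genes tested.

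None of the 3 genes of the sensor group (ERN1, ATF6 and XBP1) was called, and groups overlapped in each. Their median was -0.04 (0.01 with library totals). XBP1 is a target of the sensor IRE1. The sensor PERK (EIF2AK3), which was called lower and fell 1.24-fold, was counted in a further list. XBP1 had 14670, 14335 and 13706 normalized counts in EV and 14503, 12917 and 13403 in shCHROME (log2 fold change -0.07, 95% interval -0.19 to 0.05). ERN1, which encodes IRE1, had 1593, 1445 and 1558 in EV and 1423, 1542 and 1502 in shCHROME (-0.04, -0.19 to 0.10). ATF6 had 3205, 3302 and 3279 in EV and 3207, 3161 and 3122 in shCHROME (-0.04, -0.16 to 0.07). A decrease as large as that of HERPUD1 or ERO1LB lay outside each of these intervals. Per kilobase of exon, the EV means were 6980 normalized counts for XBP1, 435 for ATF6 and 156 for ERN1, against 9970 for HSPA5 and 26700 for CANX.

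Other genes of the same route were counted from lists that do not share a gene with the 36. The background for each list below is the share of all genes tested, 6.87% called lower and 3.64% higher. ER exit by COPII vesicles and retrieval by KDEL receptors had the highest proportion of decreases among these ER lists, with 12 of 21 genes lower and none higher (57.1%, median log2 fold change -0.21). KDELR3, a receptor that returns chaperones from the Golgi, had 1073, 1153 and 943.9 normalized counts in EV and 538, 603.8 and 624 in shCHROME. Each shCHROME library was far below each EV library, and KDELR3 fell 1.79-fold (adjusted p = 7.39e-06). SEC24A, a cargo-binding subunit like SEC24D, fell 1.31-fold, the GTPase SAR1B, needed to export large cargo, 1.28-fold and the coat subunit SEC23A 1.23-fold. The number of calls in this list was between 8 and 12 over the 16 alternatives, the lowest without EV replicate a.

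**Figure D4:**
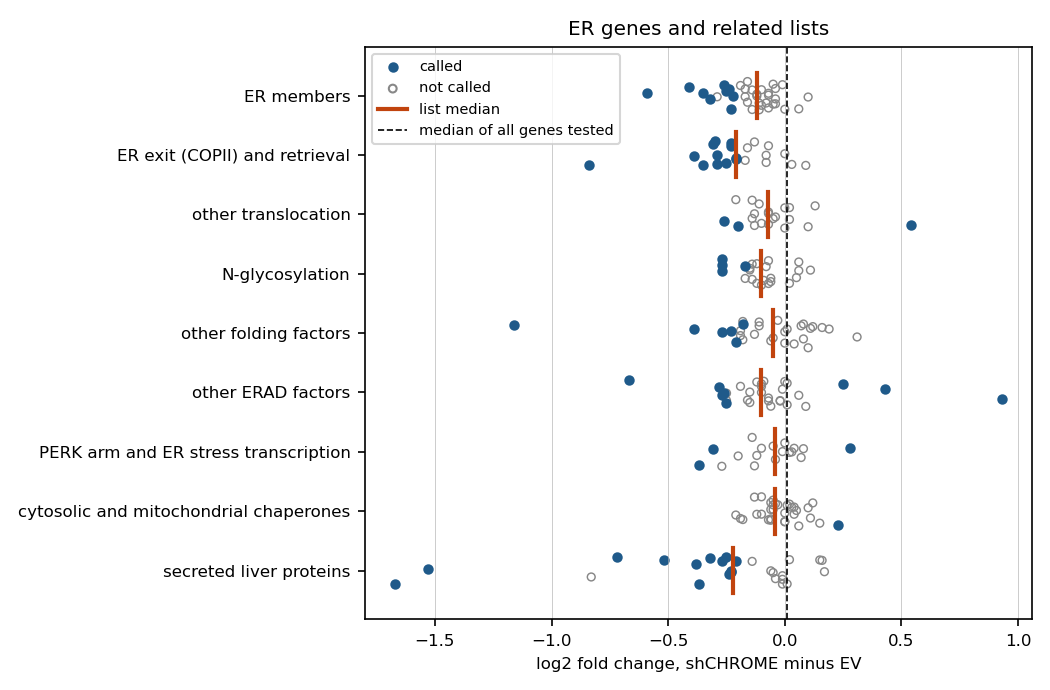
Log2 fold change (shCHROME minus EV) of every tested gene in the 36 ER genes (ER members) and in related lists; filled points had a limma adjusted p under 0.05, red bars are list medians and the dashed line is the median of all genes. Calls are most frequent in ER exit and retrieval (12 of 21) and in secreted liver proteins (13 of 26), and the cytosolic and mitochondrial chaperones lie around 0.

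Among other folding factors, 6 of 29 tested genes were lower and none higher (median -0.05). The count of lower genes fell to 2 with library totals, which gave 1 higher, and to 2 without EV replicate a, EV replicate b or shCHROME replicate c. Without shCHROME replicate a, 10 were lower and 1 higher. AGR2, a disulphide isomerase of secretory cells, had 252, 304.4 and 228 normalized counts in EV and 121.4, 110.6 and 115.9 in shCHROME, and fell 2.23-fold (adjusted p = 3e-05). The prolyl isomerase FKBP11 fell 1.31-fold, PDIA2 1.17-fold and TXNDC11 1.16-fold, the calls of PDIA2 and TXNDC11 being lost in 4 of 16 alternatives each. In N-glycosylation 4 of 23 were lower and none higher (median -0.10): ALG2, ALG5 and DAD1 at 1.2-fold and RPN2 at 1.12-fold. Their calls were lost in 2, 9, 6 and 10 of 16 alternatives, and between 0 (without EV replicate b or shCHROME replicate c) and 5 genes (DESeq2) of this list were called.

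In other degradation factors, 5 of 30 were lower and 3 higher (median -0.10). FAF2, which recruits the extraction ATPase to the ER membrane, had 4226, 4275 and 4251 normalized counts in EV and 2673, 2618 and 2705 in shCHROME, and fell 1.59-fold (adjusted p = 4.01e-07). The groups were narrow and wide apart. That ATPase, VCP, fell 1.19-fold, the lectin OS9 1.21-fold and FAM8A1, a cofactor of HRD1, 1.19-fold. The 3 higher genes, named after their values were seen, were SEL1L3, named for its likeness to SEL1L, at 1.90-fold, RHBDD1 at 1.34-fold and ERLIN2 at 1.19-fold, with calls lost in 3, 7 and 6 of 16 alternatives, and none of them was called without shCHROME replicate a or without shCHROME replicate c. In other translocation genes 2 of 21 were lower (9.52%, near the 6.87% of all genes), SSR3 by 1.2-fold and SRPRB by 1.15-fold. SEC61A2, a relative of SEC61A1, was 1.46-fold higher. The calls of SRPRB and SEC61A2 were lost in 7 and 4 of 16 alternatives, 4 genes of the list were lower without shCHROME replicate a, and TRAM1 did not pass the test (log2 fold change -0.21, adjusted p = 0.075).

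In the list of the PERK arm and further ER stress transcription genes, 2 of 18 were lower and 1 higher (median -0.04). The share of lower genes was 11.1%, against 6.87% of all genes. EIF2AK3, which encodes PERK, had 3221, 3209 and 2997 normalized counts in EV and 2611, 2517 and 2480 in shCHROME, and fell 1.24-fold (adjusted p = 0.00252). Among the messengers of the sensors it was thus the one that passed the test, while those of IRE1 and ATF6 did not; these differences between genes were not tested. The ER-bound transcription factor gene CREB3 fell 1.29-fold (adjusted p = 0.0035). MBTPS2, the protease that completes the cleavage of ATF6, was 1.21-fold higher, a call lost in 6 of 16 alternatives. ATF4, the transcription factor below PERK, had a log2 fold change of -0.13 (adjusted p = 0.205).

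Chaperones outside the ER were counted beside them. Of 32 cytosolic and mitochondrial chaperone genes, none was lower and 1 was higher. Their median was -0.04 (0.01 with library totals) and 19 values were negative. HSP90AA1, the cytosolic relative of HSP90B1, had 17322, 15177 and 16342 normalized counts in EV and 20256, 17542 and 19461 in shCHROME, and rose 1.17-fold (adjusted p = 0.0276, lost in 4 of 16 alternatives). HSPA8, the cytosolic relative of HSPA5, had a log2 fold change of -0.10, HSPD1 of 0.02 and HSPA9, the mitochondrial Hsp70, of 0.01, and none of these passed the test.

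Secreted liver proteins are cargo of the ER. Of 26, 13 were lower, none higher and 13 not called (median -0.22, with 5 positive values), KNG1, PLG, A2M and TTR having the smallest adjusted p. The count of lower genes was 7 without EV replicate c and 8 without shCHROME replicate c, and 2 genes were higher with library totals, 1 with upper quartile scaling, 1 with DESeq2 and 1 without EV replicate b. The summed level of the 26 was between 2409948 and 2573870 normalized counts in EV and between 1984002 and 2215885 in shCHROME, and was lowest in shCHROME replicate a. Among the 3 shCHROME libraries, that one had the highest sum of the 36 ER genes, still below each EV library. Of the 10 hepatocyte markers, 6 fell and none rose (3 fell without EV replicate c and 4 without shCHROME replicate c). Together these markers took 4.37% to 4.75% of normalized counts in EV and 3.58% to 4.24% in shCHROME. The markers ALB, APOA1, APOB, TTR, SERPINA1, FGB and TF are also among the 26 secreted genes. ALB, APOA1, TTR, SERPINA1 and TF were counted as lower in both lists, so the lists are not separate observations. The part of these shifts in the change of the ER genes was not tested. In bulk RNA, fewer cells of a type and less RNA per cell cannot be told apart.

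Markers of other cell types were also summed. Of 10 markers of the embryonic kidney packaging line, 6 had under 10 reads in each library, NEFL and NEFM were at 0, and the summed level was 5029 to 5360 normalized counts in EV and 4725 to 4998 in shCHROME. Of the 4 tested, 1 was lower. The 6 blood and endothelial markers summed to between 6143 and 6237 in EV and between 6529 and 8005 in shCHROME, and 1 of the 5 tested was higher. The 6 fibroblast and stellate markers summed to 335.6 to 451.1 and 168.5 to 236.3, with DCN at 0 and 5 of 6 under 10 reads in each library, and the 1 tested was lower (log2 fold change -0.98). Their part in the results was not tested. Recovered reads per library ran from 29188213 to 35429420.

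Of the 9 called genes, ERO1LB, HERPUD1, MANF, SEC61A1 and SEC24D were called under each of the 16 alternatives, with adjusted p of at most 0.00204, 0.00168, 0.0296, 0.0488 and 0.0347. In the authors' deposited table, 7 of the 36 genes had an adjusted p under 0.05, all of them among the 9. The share of all genes with such an adjusted p in the authors' test was not counted. HSPA5 (0.0869) and DNAJB9 (0.131) did not pass in the authors' deposited table.

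**Figure D5:**
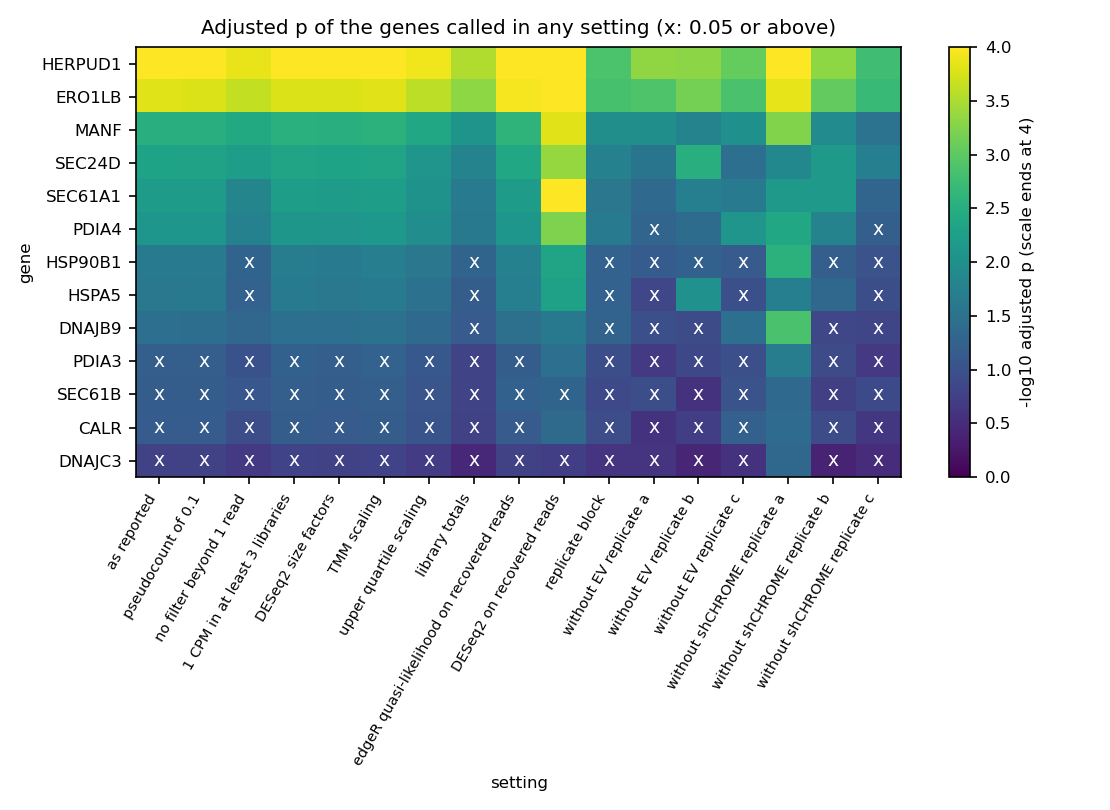
Adjusted p (as -log10, colour) of the 13 genes called in at least 1 setting, as reported and under 16 alternatives; a cross marks an adjusted p of 0.05 or above. The rows of HERPUD1, ERO1LB, MANF, SEC24D and SEC61A1 hold no cross, and PDIA3, SEC61B, CALR and DNAJC3 gain the call when shCHROME replicate a is left out.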

How the data were processed

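Libraries (3 EV, 3 shCHROME) were made with a TruSeq RNA kit and read from both ends, per the labels' protocols. The submitters' processing notes name STAR 2.5, hg19, featureCounts 1.5.2 and DESeq2 (as version 3.4); annotation and strand setting are not given in the sources used here. The authors deposited 1 table with a never-negative signal per gene and library (counts divided by a size factor), and with their log2 fold change, mean and p-values. Of its 24656 rows, 1288 repeated rows were removed.

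Values were whole multiples of 1 read within 0.01 reads for 100% of genes in each library, so whole reads were recovered. Values were tested as log2(value + 1) by limma-trend (limma 3.58.1), which understates changes of low genes, with group as the only term and Benjamini-Hochberg adjustment over the 14598 genes kept by filterByExpr (edgeR 4.0.16). Folds are powers of that log2 value. A simulation changed 50 genes at each fold among 14598 genes of all levels. There the limma test recovered 20% of 1.2-fold, 64% of 1.5-fold, 78% of 2-fold and 96% of 4-fold changes. It made 130 calls, fewer than the 532 higher and 1003 lower here, so its adjusted threshold was stricter. The recovered shares do not carry over directly to the 36 genes. A gene without a call may still have changed by a small fold. edgeR's quasi-likelihood test on the recovered reads called 538 genes higher and 1015 lower, and DESeq2 1.42.0 called 577 and 1060. Exon lengths came from GENCODE release 29 by gene identifier. The 36 genes and the lists were chosen with earlier results of these data known, so no list was tested as a set. Values per library are given for called genes, the sensor group and the uncalled gene with the highest count in each role. From each further list up to 4 genes are named, called ones first by adjusted p. The values of ERO1L and CRELD2 and the 3 higher degradation genes were added after they were seen. Protein ends were to be compared and are not analysed here.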

Additional observations from a re-analysis of the deposited data

How the results depend on the processing

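Over all genes, 532 were higher and 1003 lower. With libraries scaled to their totals, 936 were higher and 702 lower, so lower genes were 42.9% of calls in place of 65.3%, the median of all genes moved from 0.009 to 0.058, and that of the 36 ER genes from -0.12 to -0.07. Rescaling libraries moves every gene by nearly the same amount, so the difference between these medians, -0.13 with either scaling, could not change. With 1 library left out, between 245 and 528 genes were higher and between 599 and 1051 lower, and between 5 and 13 of the 36 were lower. The fewest, 5, were found without EV replicate a or shCHROME replicate c, and 13 without shCHROME replicate a. None of the 36 was called higher under any of the 16 alternatives, DERL3 having no test in 2 of them. The values gave no sign that the replicate letters paired the libraries. Deviations from the group means correlated at -0.047 (a), -0.0915 (b) and 0.0444 (c), and not every library correlated best with its own letter. With 3 libraries per group, such correlations cannot show that pairing was absent. With a replicate block, 349 genes were higher and 764 lower, and 6 of the 36 were lower, HSPA5, HSP90B1 and DNAJB9 losing the call (adjusted p = 0.0547, 0.0558 and 0.0541). HSPA5, HSP90B1 and DNAJB9 also lost it with library totals (0.0654, 0.0514 and 0.0721).

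Some uncalled genes changed sign, most of them near 0 (DERL3, at -0.29, was not). With library totals ERO1L had a log2 fold change of 0.0385, SEL1L of 0.0142, DERL1 of 0.0459, ERN1 of 0.00834 and ATF6 of 0.00508. With upper quartile scaling ERO1L had 0.00646 and DERL1 0.0139. With 1 library left out the values ran from -0.0156 to 0.126 for DNAJB11, -0.0718 to 0.036 for ERO1L, -0.0708 to 0.00199 for SEL1L, -0.173 to 0.0229 for SYVN1, -0.0375 to 0.0362 for DERL1, -0.559 to 0.0565 for DERL3, -0.102 to 0.00209 for SEC23B, -0.016 to 0.0717 for HSPD1 and -0.0393 to 0.0653 for HSPA9. The cause of these changes was not tested. Depth limits DERL3 most, with 12 to 31 reads per library, whereas every other of the 36 had at least 398.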
